A study of Mus musculus with 8 samples.

Results

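The genes described here belong to the red cell lineage, and their transcripts were measured in the livers of young mice with and without a permanently active version of the kinase IKK2. Members were the probe sets annotated to exactly 1 of 8 symbols (Gata1, Klf1, Alas2, Ahsp, Car1, Car2, Epb42 and Slc4a1), with the brightest probe set standing for a gene. Of the 8 listed genes 7 were measured, out of 19938 genes in all. Ahsp had no probe set under its symbol in the annotation used here and was not analysed here. The comparison is between 4 transgenic mice, whose IKK2 transgene stands behind the LAP promoter, and 4 wild type controls. The LAP promoter is known to work in hepatocytes, which make up most of the liver's mass. All mice were 4 weeks old, came from a mixed C57BL/6 and NMRI stock backcrossed to C57BL/6 at least 4 times, and have 1 array each. Each array gives 1 log2 value for a probe set, and a difference of 1 is a doubling. The number of arrays limits the precision.

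Red cells form from progenitors that switch on the transcription factors GATA1 and KLF1, which in turn drive genes for haemoglobin, haem and the red cell membrane. The fetal liver is the main site of this process before birth, after which it moves to bone marrow and spleen. In a liver after birth, red cell transcripts can come from blood in the vessels and from remaining or returning precursors. Haem is also made by hepatocytes themselves, through a separate first enzyme, and hepatocytes and red cells each have carbonic anhydrases.

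In transgenic liver 2 of the 7 members were lower and 0 were higher by limma's test, which adjusts p-values over all probe sets with 1 gene symbol and was passed at an adjusted p under 0.05. The 2 were the carbonic anhydrase Car1, which fell 3.07-fold, and the transcription factor Gata1, which fell 1.32-fold. Over all genes 1.67% were called lower and 4.67% higher. At an unadjusted p under 0.05, which 33.6% of all genes reached, 3 members passed, with the carbonic anhydrase Car2 added and higher in transgenic liver. The median log2 fold change of the 7 members was 0.10, against -0.07 for all genes. Klf1, Alas2, Epb42 and Slc4a1 did not pass.

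**Figure D1:**
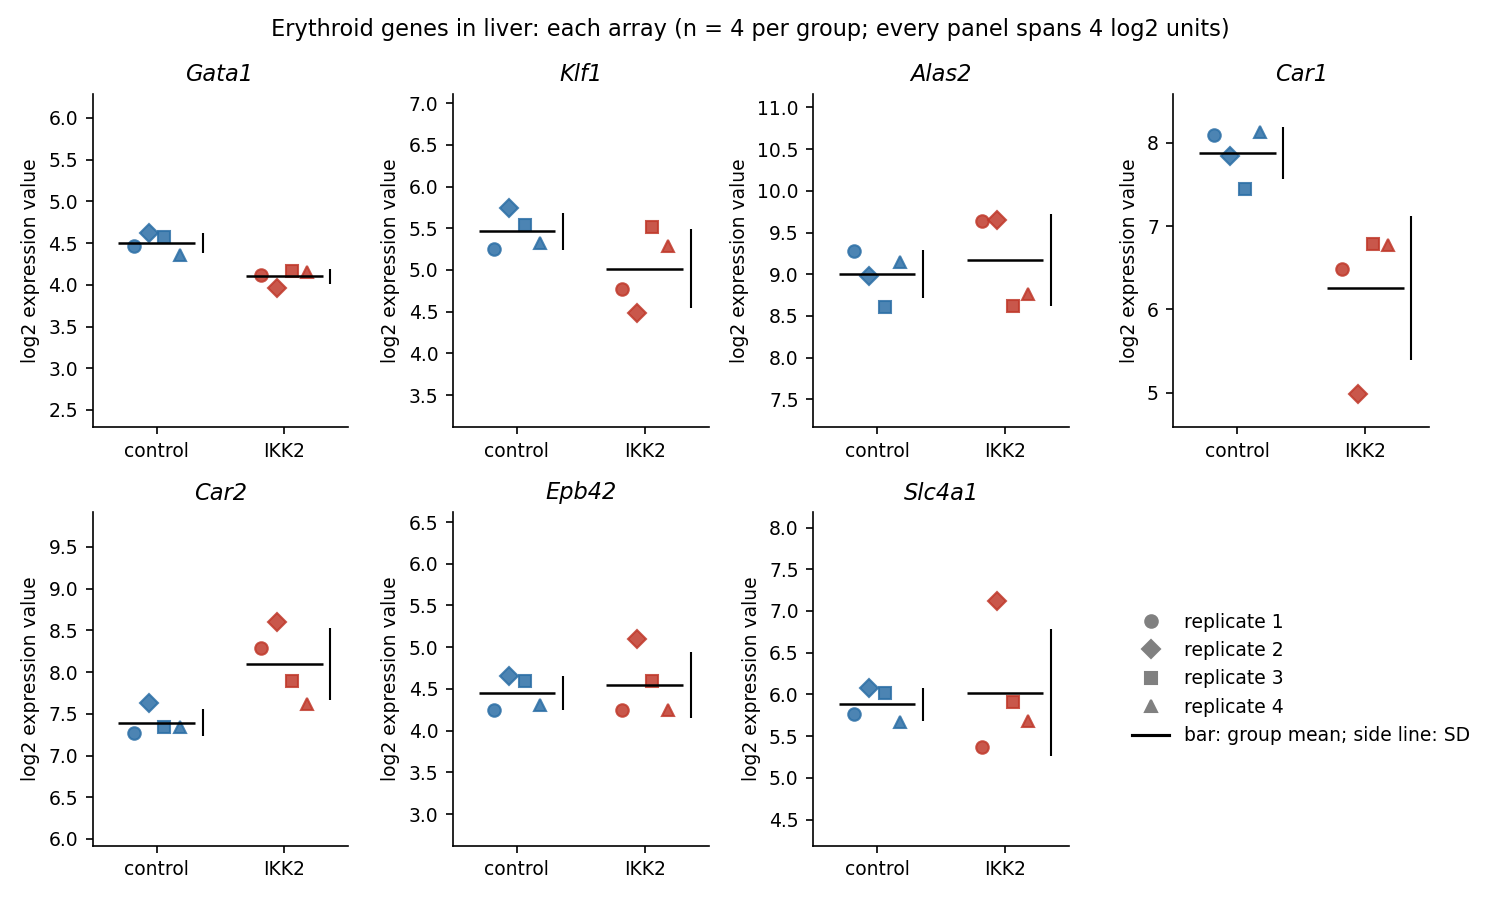
Log2 expression value (vertical axis, each panel spanning 4 log2 units) of the 7 measured members in 4 control livers and 4 livers with active IKK2, 1 symbol per array with its shape giving the replicate number, a bar at the group mean and a line for the SD. The groups are apart for Gata1 and Car1 and overlap for the other 5, and transgenic replicate 2 is the lowest array for Car1 at 4.99 and the highest for Slc4a1 at 7.12.

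Array medians lay between 4.88 and 5.08. Transgenic replicate 2 correlated least with the other arrays of its own group, with a mean r of 0.980 over probe sets against 0.987 to 0.993 for the other 7 arrays. The members and some other genes are therefore given with and without it. The gene of the kinase, Ikbkb, was higher in each transgenic liver than in any control, as were 11.2% of all genes. Its log2 fold change was 1.00 (SE 0.18, limma adjusted p = 0.0185). Leaving out transgenic replicate 1 ended that call (adjusted p = 0.0688), and so did leaving out control replicate 1, 2, 3 or 4 (0.0546, 0.0691, 0.0565 and 0.0566). As for the tissue, the hepatocyte transcript Alb read 13.5 to 13.6 in each array, and 0 of 9 measured hepatocyte markers were called by limma, while 3 had an unadjusted p under 0.05. The one with the smallest p was transferrin, Trf, at a log2 fold change of 0.20 (adjusted p = 0.103). Asgr1 at -0.31 and Ttr at -0.29 also had an unadjusted p under 0.05 and were lower (limma adjusted p = 0.113 and 0.138). The median of the 9 markers was -0.17, against -0.07 for all genes.

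Among the transcription factors, Gata1 was lower in transgenic liver. GATA1 is the zinc finger protein needed for red cells, platelets, mast cells and eosinophils to form. Gata1 (probe set 10603417) read 4.47, 4.62, 4.57 and 4.35 in control replicates 1 to 4. In transgenic replicates 1 to 4 it read 4.11, 3.97, 4.17 and 4.15. The highest transgenic array was below the lowest control, as it was for 11.2% of all genes. The log2 fold change was -0.40 (SE 0.09, limma adjusted p = 0.0370). All 8 readings lay below the median of their own array, and no background was measured, and with dim signals the measured size is less sure. With all genes put into 4 equal groups by mean level, the group of Gata1, next to the dimmest, had a median log2 fold change of -0.17, and 1.67% of its genes were called lower.

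The Gata1 call is close to the threshold. Gata1 missed it when transgenic replicate 1 (adjusted p = 0.108), transgenic replicate 2 (0.0512) or control replicate 1, 2, 3 or 4 (0.0857, 0.101, 0.101 and 0.0590) was left out. It also missed when all deposited probe sets entered the adjustment (0.0618) and with a block for the replicate number (0.0742). The range was 0.0336 to 0.108 in the settings tried.

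Klf1 encodes the CACCC-box factor that acts after GATA1 and switches on adult globin and membrane genes. Klf1 (probe set 10573457) read 5.25, 5.74, 5.53 and 5.33 in control replicates 1 to 4. In the transgenic replicates it read 4.78, 4.49, 5.52 and 5.29. Replicates 1 and 2 of the transgenic group lay below every control and replicates 3 and 4 lay among them, so the groups overlapped. The log2 fold change of Klf1 was -0.45 (95% interval -0.92 to 0.03, limma adjusted p = 0.172), as large as that of Gata1 but with a transgenic SD of 0.47 against 0.09. Without transgenic replicate 2 it was -0.27.

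The stretches of 250 bases before the start of 4 members are shown because GATA1 and KLF1 are known to act on red cell promoters. The dim Gata1 transcript was called lower here, close to the threshold, and the GATA1 protein was not measured. They come from RefSeq on the build GRCm38.p6, whose promoter table matched 4 of the 8 listed genes. Capitals mark the letters GATAA and CACCC on either strand, which the factors are known to prefer, and the 2 motifs did not overlap in these windows.
Gata1, chrX:7967911-7968160, minus strand: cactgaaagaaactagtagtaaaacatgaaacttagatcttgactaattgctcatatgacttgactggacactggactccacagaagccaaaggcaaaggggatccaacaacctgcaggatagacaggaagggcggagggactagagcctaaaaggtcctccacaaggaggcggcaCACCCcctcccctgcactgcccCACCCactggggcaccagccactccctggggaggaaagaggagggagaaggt
Klf1, chr8:84901732-84901981, plus strand: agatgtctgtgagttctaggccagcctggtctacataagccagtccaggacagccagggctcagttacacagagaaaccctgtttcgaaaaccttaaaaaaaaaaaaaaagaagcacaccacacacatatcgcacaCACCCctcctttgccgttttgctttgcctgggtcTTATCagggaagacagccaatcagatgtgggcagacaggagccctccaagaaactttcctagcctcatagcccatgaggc
Alas2, chrX:150547167-150547416, plus strand: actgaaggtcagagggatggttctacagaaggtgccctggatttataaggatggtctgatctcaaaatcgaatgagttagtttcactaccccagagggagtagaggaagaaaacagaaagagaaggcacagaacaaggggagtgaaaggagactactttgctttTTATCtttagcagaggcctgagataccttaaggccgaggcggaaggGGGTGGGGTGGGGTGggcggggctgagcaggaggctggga
Epb42, chr2:121036878-121037127, minus strand: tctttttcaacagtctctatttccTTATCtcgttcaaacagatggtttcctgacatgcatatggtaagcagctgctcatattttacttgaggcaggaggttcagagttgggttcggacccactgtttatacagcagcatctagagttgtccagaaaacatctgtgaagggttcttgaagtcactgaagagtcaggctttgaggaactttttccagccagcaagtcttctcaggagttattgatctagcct

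The letters GATAA were present once each in the windows of Klf1, Alas2 and Epb42, on the opposite strand, beginning 80, 86 and 226 bases before the start. The Gata1 window had no GATAA match, while CACCC stood there at 74 and 52 bases before the start. Matches to CACCC were also present in the windows of Klf1, at 114 bases, and of Alas2, at 40, 35 and 30 bases on the opposite strand. Over 32851 promoter windows of the same length, 22.6% held GATAA and 52.0% held CACCC on either strand, so such matches are common, and a match is a description of the letters only. None of the 3 genes whose window held GATAA was called in limma's test. Over all genes 1.67% were called lower and 4.67% higher, so no call among so few genes says nothing about the motif.

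Alas2 encodes the red cell form of the enzyme that starts haem synthesis. Alas2 (probe set 10602372) read 9.28, 8.98, 8.61 and 9.15 in control replicates 1 to 4. In the transgenic replicates it read 9.64, 9.65, 8.62 and 8.76. Transgenic replicates 1 and 2 were above every control, and replicates 3 and 4 were within the control range. Its log2 fold change was 0.16 (95% interval -0.40 to 0.73, limma adjusted p = 0.652), and it was 0.0044 without transgenic replicate 2. Transgenic replicates 1 and 2 are thus the arrays with the highest Alas2 and the lowest Klf1.

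The membrane members gave no call in either direction. Slc4a1 encodes band 3, the anion exchanger that anchors the red cell membrane to its skeleton. Slc4a1 (probe set 10391649) read 5.77, 6.08, 6.02 and 5.66 in control replicates 1 to 4. In the transgenic replicates it read 5.37, 7.12, 5.91 and 5.68. Transgenic replicate 2 was higher than all other arrays by more than the whole control range, and transgenic replicate 1 was the lowest of the 8. Between the groups the log2 fold change was 0.14 (95% interval -0.57 to 0.85, limma adjusted p = 0.767) and turned to -0.23 without transgenic replicate 2 (adjusted p = 0.354).

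Epb42 encodes protein 4.2, which binds band 3 to ankyrin. Epb42 (probe set 10486664) read 4.24, 4.65, 4.60 and 4.30 in control replicates 1 to 4. In the transgenic replicates it read 4.24, 5.09, 4.60 and 4.25. Transgenic replicate 2 was again the highest array, and the other transgenic arrays lay close to the control range. The log2 fold change of 0.10 (95% interval -0.33 to 0.52, limma adjusted p = 0.721) turned to -0.085 without transgenic replicate 2. The intervals of Slc4a1, Epb42 and Alas2 include changes in either direction, so no difference was detectable with 4 arrays a group, which does not show that the levels were equal. In these whole-liver samples fewer cells of a type and less RNA per cell cannot be told apart.

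The 2 carbonic anhydrases among the members went in opposite directions. Carbonic anhydrases interconvert carbon dioxide and bicarbonate, and CAR1 and CAR2 are cytosolic enzymes known from red cells. Car1 (probe set 10497337) read 8.10, 7.84, 7.44 and 8.12 in control replicates 1 to 4. In the transgenic replicates it read 6.48, 4.99, 6.79 and 6.78. Each transgenic array was below every control, as for 11.2% of all genes. Transgenic replicate 2 was lower than the other transgenic arrays by more than the range of the controls. The log2 fold change was -1.62 (95% interval -2.43 to -0.80, SE 0.37, limma adjusted p = 0.0374). Without transgenic replicate 2 it was -1.19 with a smaller adjusted p (0.00246).

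Car1 no longer passed when transgenic replicate 1 was left out (adjusted p = 0.0994) or control replicate 1, 2, 3 or 4 (0.0925, 0.101, 0.0757 and 0.0827), after centring arrays on their medians (0.0511) and with all deposited probe sets in the adjustment (0.0667), over a range of 0.00246 to 0.101. The direction held in each of the 17 other settings, with log2 fold changes from -1.79 to -1.19.

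CAR2 is the fast isoform, found in red cells and also in bile duct cells and macrophages. Car2 (probe set 10490923) read 7.27, 7.63, 7.34 and 7.35 in control replicates 1 to 4. In the transgenic replicates it read 8.29, 8.60, 7.90 and 7.62. Of the 4 transgenic arrays 3 were above every control, and replicate 4 lay just below the highest control. The log2 fold change was 0.71 (95% interval 0.27 to 1.14, limma adjusted p = 0.0574), which missed the threshold. Car2 passed it as higher with the dimmest 30% or 50% of probe sets left out (adjusted p = 0.0478 and 0.0458) and with array weights (0.0458). It also passed with a block for the replicate number (0.0494) and without transgenic replicate 4 (0.0176), over a range of 0.0176 to 0.154. Without transgenic replicate 2 its log2 fold change was 0.54 (limma adjusted p = 0.0722).

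**Figure D2:**
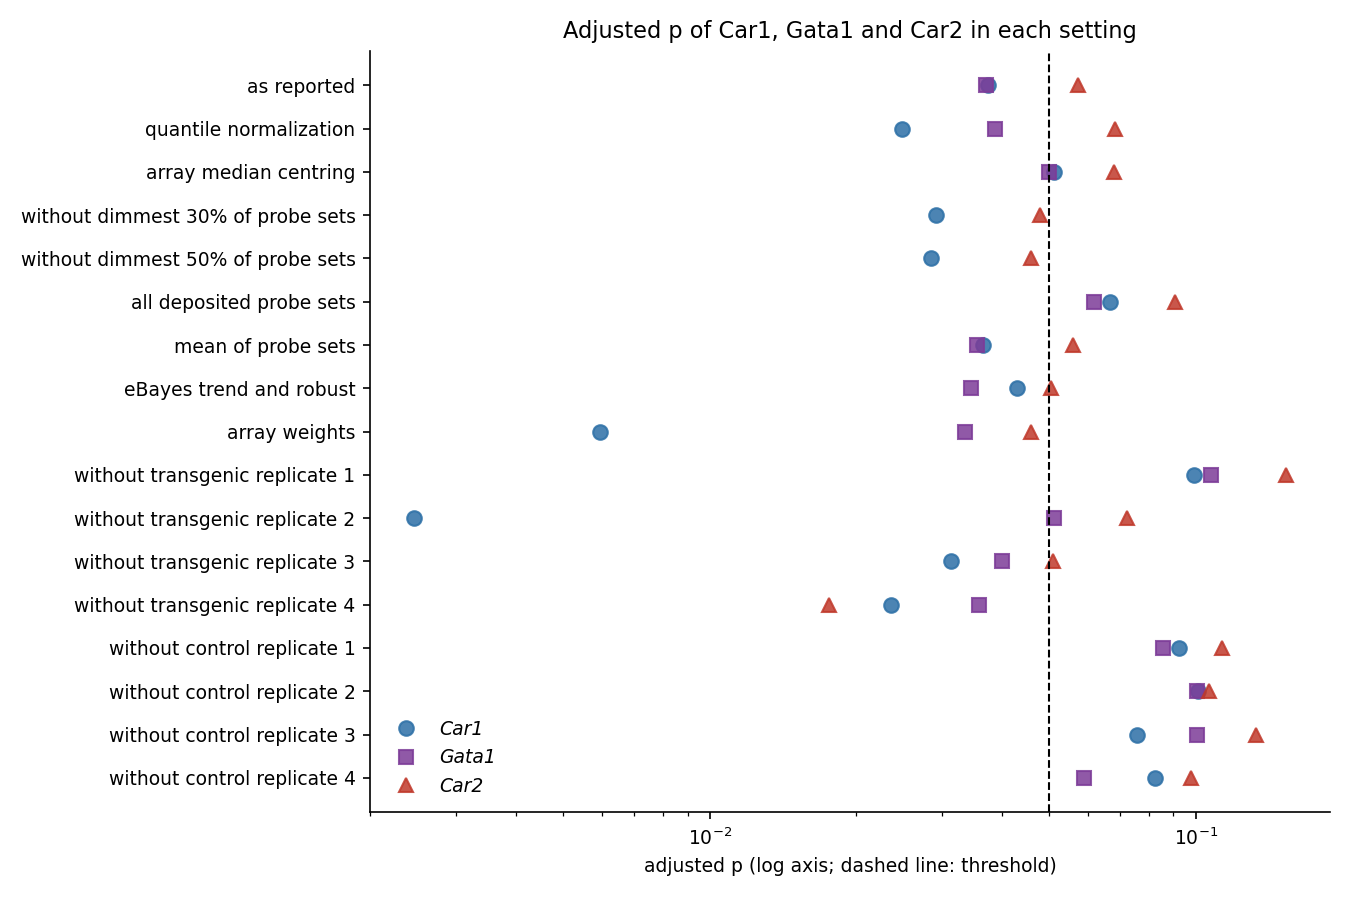
Adjusted p of Car1, Gata1 and Car2 (horizontal log axis, dashed line at 0.05) in each setting but the replicate block on the vertical axis, 1 symbol per gene, with Gata1 missing where dim probe sets were left out. Car1 and Gata1 cross the line to the right when single arrays such as transgenic replicate 1 or any control are left out, and Car2 crosses to the left without transgenic replicate 4 at 0.0176.

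The position of both genes adds to this contrast. In the RefSeq gene order of GRCm38.p6, protein-coding genes Car13, Car1, Car3 and Car2 stand next to each other on chromosome 3. Car13 was 0.95 higher on the log2 scale (limma adjusted p = 0.0790), with each transgenic array above every control, as for 11.2% of all genes. Car3, an abundant carbonic anhydrase of hepatocytes and muscle, stood at -1.76 (limma adjusted p = 0.115), with transgenic replicate 2 at 8.59 and the other transgenic arrays at 11.53, 12.08 and 12.28. The controls read 13.13, 12.85, 12.46 and 13.06 for Car3. Without transgenic replicate 2 the difference for Car3 was -0.91 and passed the test (adjusted p = 0.0278), while Car13 stood at 0.61 (0.0611). Along the cluster the log2 fold changes were therefore positive, negative, negative and positive, with the call on Car1 alone when all 8 arrays were used.

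The 14 other measured carbonic anhydrases gave 0 calls in limma's test with all 8 arrays. An unadjusted p under 0.05 was reached by 8 of them, beside 33.6% of all genes. Their median log2 fold change was -0.25, 12 of 14 were negative, beside 61.6% of all genes, and the groups did not overlap for 5 lower and 1 higher gene, where 11.2% of all genes did not overlap in each direction. The smallest p belonged to Car5b, a mitochondrial isoform, at -0.85 (adjusted p = 0.0522). In transgenic replicate 2 Car3, Car5a, Car14, Car8, Car5b, Car11 and Car15 each had their lowest reading of the 8 arrays. Car13 and Car9 had their highest reading there. Among the members, Car1, Gata1 and Klf1 had their lowest reading in transgenic replicate 2. The other 4 members, Slc4a1, Epb42, Alas2 and Car2, had their highest reading there, Alas2 by a margin of less than the control SD. Car3 and Car5a are known from hepatocytes, and the source of the Car1 signal was not tested.

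**Figure D3:**
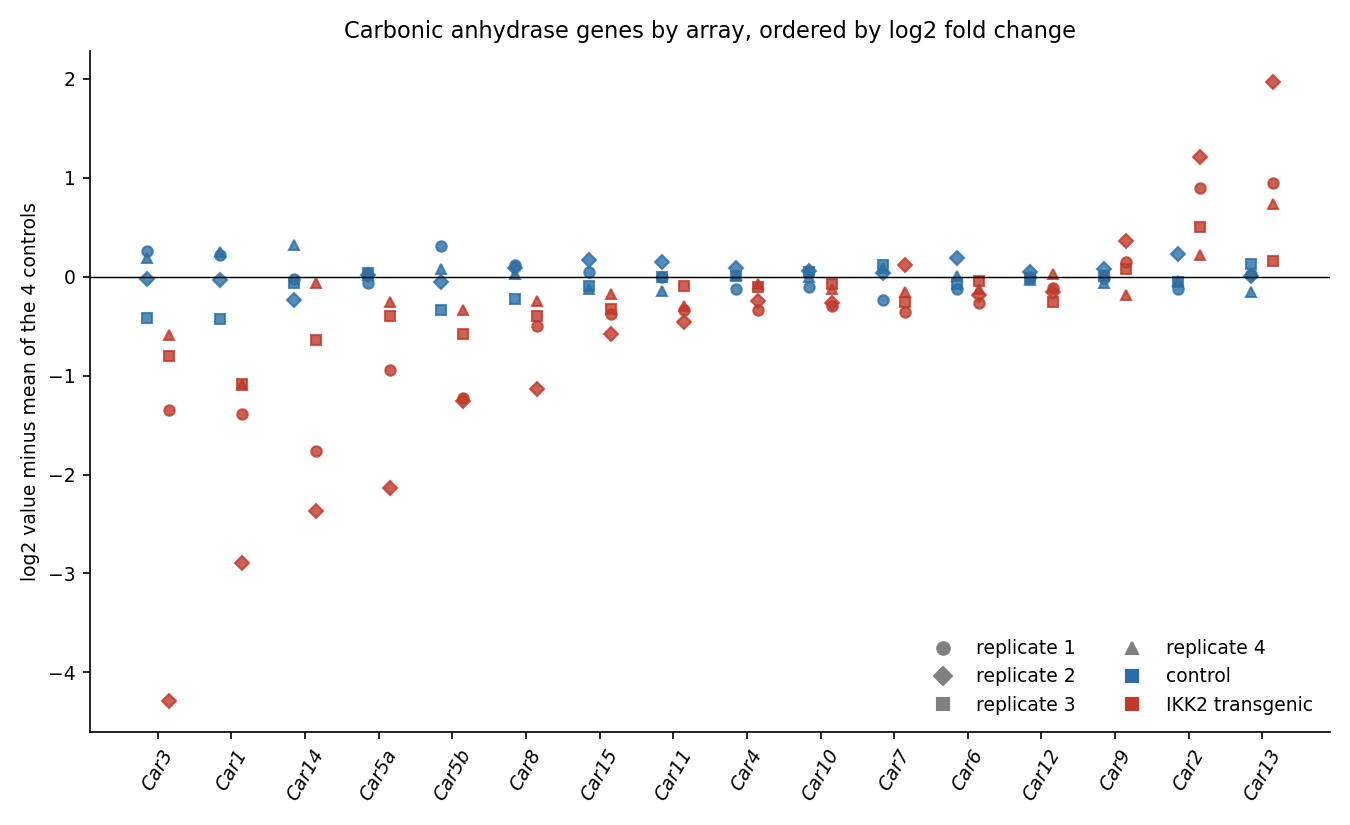
Log2 expression value minus the mean of the 4 controls (vertical axis) for Car1, Car2 and the 14 other carbonic anhydrases, ordered by log2 fold change, with 1 symbol per array (blue control, red active IKK2, shape for the replicate number). Car3 and Car1 lie lowest, with transgenic replicate 2 far below the rest, and Car2 and Car13 lie highest.

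Other genes of the red cell lineage were read through 6 lists that hold 66 genes, of which 56 were measured. Of these 3 were called higher (5.36%, against 4.67% of all genes), 4 lower (7.14% against 1.67%) and 49 did not pass. An unadjusted p under 0.05 was reached by 19 (33.9% against 33.6%), so the shares called higher and passing without adjustment were near those of all genes. Their median log2 fold change was -0.13, against -0.07 for all genes, and 44 of the 56 were negative, beside 61.6% of all genes. Of the 56, 25 had a mean level under the median of all genes. The 2 dimmer of the 4 level groups of all genes had medians of -0.10 and -0.17. Adult globins, which share probe sets between copies, were not analysed here. The counts called higher and lower depend on the arrays and on the scaling. After centring arrays on their medians 1 was higher and 1 lower. Without transgenic replicate 1 or control replicates 1, 2 or 4 there were 1 higher and 0 lower. Without transgenic replicate 2 there were 1 higher and 3 lower, without control replicate 3 there were 2 higher and 1 lower, and without transgenic replicate 4 there were 4 higher and 6 lower.

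Of the 12 transcription factors and partners 1 was lower and 11 did not pass, with a median of -0.17. The 1 was Zfpm1, which encodes FOG1, the partner that GATA1 needs. Zfpm1 read 6.83, 6.79, 6.88 and 6.72 in the controls and 6.52, 6.38, 6.40 and 6.58 in the transgenic arrays. Its log2 fold change was -0.33 (SE 0.08, limma adjusted p = 0.0444), and the call was lost after centring arrays on their medians (adjusted p = 0.0861). As with Gata1 itself, and with 11.2% of all genes, the transgenic arrays did not reach the lowest control. It was also lost without transgenic replicate 1, 2 or 3 (0.111, 0.0729 and 0.0587) or control replicate 1, 2, 3 or 4 (0.0996, 0.102, 0.114 and 0.0759), with all deposited probe sets (0.0712) and with trend and robust moderation (0.0619), over a range of 0.0222 to 0.114.

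Surface genes gave 1 higher and 1 lower of 13, with a median of -0.20. Tfrc, the transferrin receptor by which cells take up iron, rose by 1.81 on the log2 scale (SE 0.27, limma adjusted p = 0.0088), a call kept in all 17 other settings. Dividing cells and macrophages also bear this receptor. Of 5 measured cell division genes 4 were called higher, beside 4.67% of all genes, with a median of 1.19. Among the 4 were Top2a at 1.64 (0.83 as the mean of its probe sets) and Mki67 at 1.47. The part of cell division genes in the Tfrc result was not tested. Tspan33, a tetraspanin of red cell precursors and activated B cells, fell by 0.52 (SE 0.11, adjusted p = 0.0299). Tspan33 missed the threshold with transgenic replicate 1 left out (adjusted p = 0.100) or control replicate 1, 2 or 4 (0.0843, 0.0882 and 0.0708), after median centring (0.0516) and with all deposited probe sets (0.0526), over a range of 0.0157 to 0.100. Those on Top2a and Mki67 were lost without transgenic replicate 1 (0.100 and 0.0939) or any 1 control, and with all deposited probe sets (0.0618 and 0.0588), with adjusted p up to 0.100 and 0.0971. The erythropoietin receptor gene Epor stood at -0.18 (adjusted p = 0.234). The blood group genes Rhag and Kel read 2.87 to 3.37 and 3.39 to 3.62 over the 8 arrays, under every array median.

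Haem synthesis beyond Alas2 gave 1 higher and 2 lower of 11, with a median of -0.18. The enzyme of the first step in hepatocytes, Alas1, stood 1.55 higher on the log2 scale (SE 0.39, limma adjusted p = 0.0487), with controls at 9.41, 9.68, 10.76 and 8.81 and transgenic arrays at 11.59, 11.75, 10.85 and 10.64. Control replicate 3 lay above transgenic replicate 4, so the groups overlapped. Cpox, a later enzyme of the same pathway in mitochondria, fell by 0.93 (SE 0.19, adjusted p = 0.0296), with controls at 9.59 to 9.69 and transgenic arrays at 8.29, 8.35, 9.20 and 8.99. Abcb10, a mitochondrial transporter that supports haem synthesis, fell by 0.44 (SE 0.09, adjusted p = 0.0286). Hepatocytes use these genes as well, and Alas1 and Cpox thus went opposite ways within 1 pathway. After centring arrays on their medians, the calls on Alas1 (adjusted p = 0.0561) and Abcb10 (0.0539) were lost. Without transgenic replicate 1 the adjusted p was 0.136 for Alas1, 0.0858 for Cpox and 0.0734 for Abcb10. Leaving out any 1 control also ended the calls on Cpox and Abcb10, and leaving out control replicate 1, 2 or 4 or transgenic replicate 2 that on Alas1. With all deposited probe sets the adjusted p was 0.0814 for Alas1 and 0.0550 for Cpox, and with trend and robust moderation it was 0.0560 for Alas1. The ranges over settings were 0.0252 to 0.136 for Alas1, 0.00974 to 0.0859 for Cpox and 0.0104 to 0.0834 for Abcb10.

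Membrane skeleton genes gave 1 higher of 9, with a median of -0.10. Mpp1, a membrane scaffold protein of red cells that white cells also make, rose by 0.48 (SE 0.12, limma adjusted p = 0.0440). Mpp1 missed the threshold with transgenic replicate 1 or 2 left out (adjusted p = 0.127 and 0.0575) or any 1 control, after median centring (0.0606), with all deposited probe sets (0.0737) and with array weights (0.0595), over a range of 0.0251 to 0.127. Late maturation genes gave 0 calls of 7 with a median of -0.03, and 1 had an unadjusted p under 0.05, the ubiquitin ligase Trim58 at -0.31 (adjusted p = 0.120). The 4 measured globin genes, Hba-x, Hbb-bh1, Hbb-bh2 and Hbb-y, are not the adult globins. They also gave 0 calls and 0 unadjusted p under 0.05. Hba-x had the smallest p of them and a log2 fold change of -0.23 (limma, adjusted p = 0.182). All 4 had a mean level under the median of all genes.

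**Figure D4:**
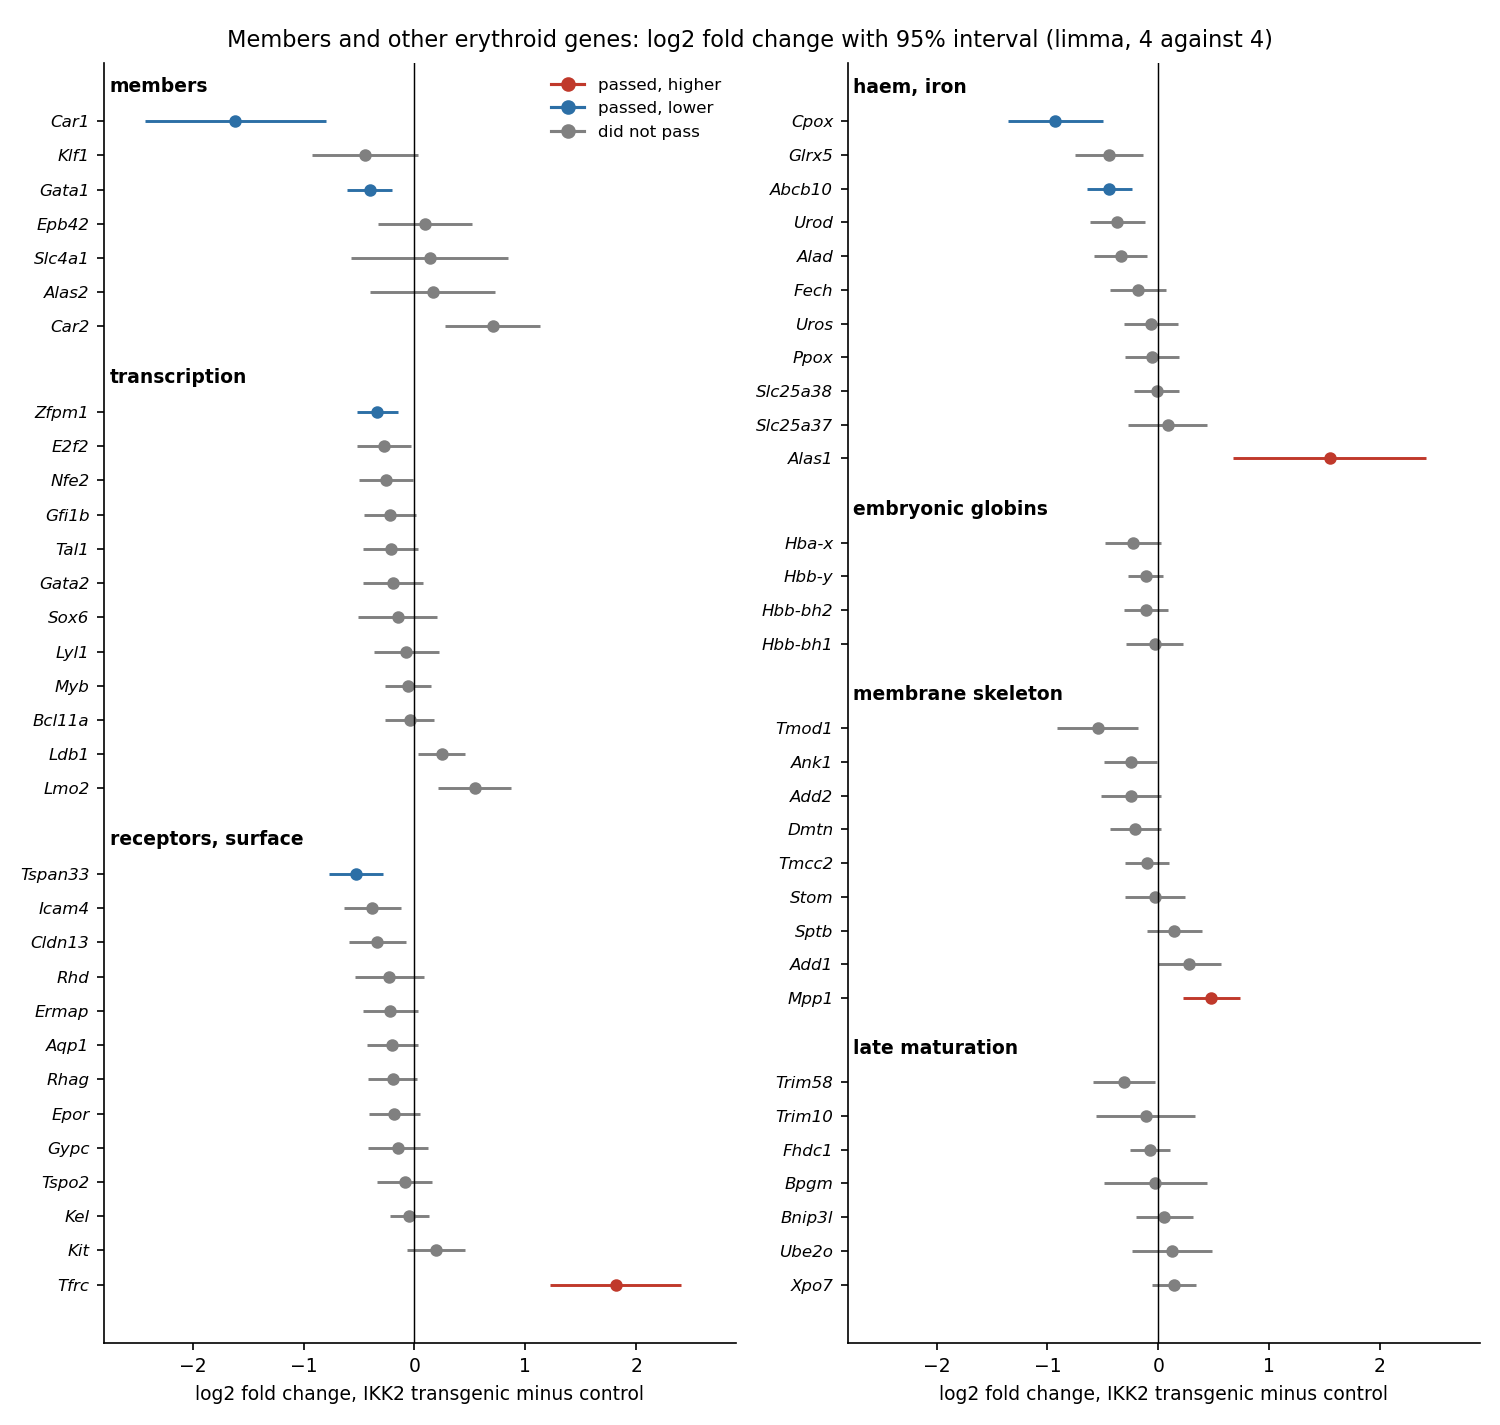
Log2 fold change, transgenic minus control (horizontal axis), with its 95% interval from limma for the 7 members and 56 other erythroid genes, grouped by role. Most points lie slightly left of 0 in grey, Car1 at -1.62 is the lowest, and Tfrc at 1.81 and Alas1 at 1.55 are the highest.

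**Figure D5:**
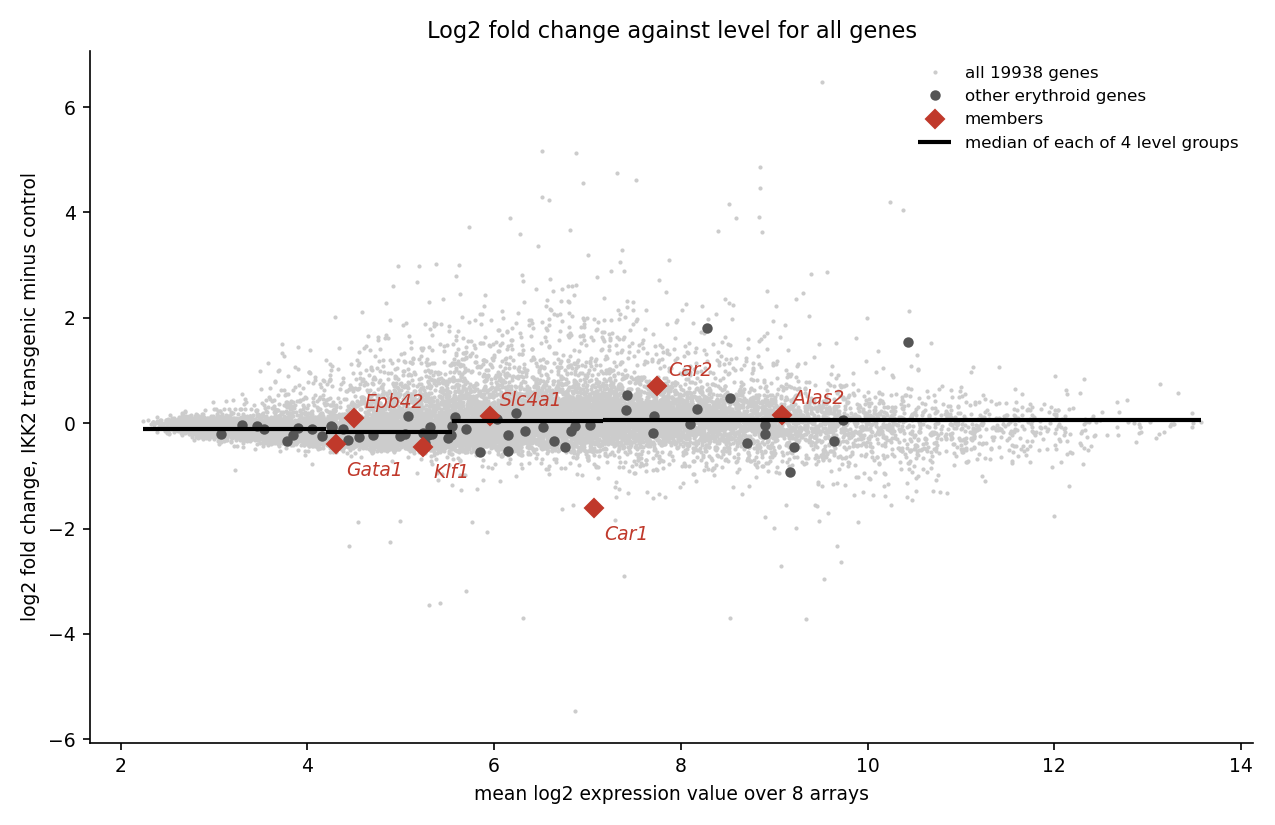
Log2 fold change, transgenic minus control (vertical axis), against the mean log2 expression value over 8 arrays (horizontal axis) for 19938 genes, with members as red diamonds, other erythroid genes in dark grey and a black line at the median of each of 4 equal groups by level. The 2 dimmer groups have medians of -0.10 and -0.17 and the 2 brighter ones 0.04 and 0.06, and Car1 lies below most genes of its level while Gata1 and Klf1 lie near the dim side.

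Other cells that use Gata1 were looked at through their own markers. For the counts of both lists below, 4.67% of all genes were called higher and 1.67% lower. Among 8 measured genes of megakaryocytes and platelets 2 were higher and 0 lower, with a median of 0.12. They were Pf4, a platelet chemokine, at 0.98 (limma adjusted p = 0.0159) and Clec1b, a platelet receptor that Kupffer cells also bear, at 0.87 (adjusted p = 0.0403). Among 10 mast cell and eosinophil genes 2 were higher and 0 lower, with a median of -0.09. They were Siglecf at 1.31 (adjusted p = 0.0383) and the chemokine receptor Ccr3 at 1.28 (adjusted p = 0.0403), both known from eosinophils, while the granule gene Epx read 3.55 to 4.18, under every array median. Summed over the list on the linear scale and put back to log2, these genes read 7.73 to 8.52 in transgenic and 7.52 to 7.69 in control arrays. For the megakaryocyte list the sums were 9.09 to 9.65 and 8.68 to 8.89. Leaving out transgenic replicate 1 ended the calls on Pf4, Clec1b, Siglecf and Ccr3 (adjusted p = 0.0644, 0.110, 0.0931 and 0.120), as did leaving out any 1 control, except control replicate 2 for Pf4. With all deposited probe sets Clec1b, Siglecf and Ccr3 also missed the threshold (0.0698, 0.0673 and 0.0703), as did Clec1b and Ccr3 after median centring (0.0551 and 0.0553). Their ranges over settings were, from Pf4 to Ccr3, 0.00343 to 0.0644, 0.0182 to 0.110, 0.00448 to 0.104 and 0.0195 to 0.120. Most other genes of the mast cell and eosinophil list went the other way: 8 of its 10 log2 fold changes were negative, beside 61.6% of all genes. The mast cell tryptase genes Tpsab1 at -0.35 (adjusted p = 0.0641) and Tpsb2 at -0.23 (adjusted p = 0.124) were lower in each transgenic array than in any control without a call. In the megakaryocyte list 3 of 8 were negative, among them the platelet glycoprotein gene Gp5 at -0.33 (adjusted p = 0.0750), also with non-overlapping groups. Of all genes 11.2% were lower in this non-overlapping way. The sums weight the bright genes, and for neither list did its genes move 1 way. The part of these cells in the Gata1 result was not tested.

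Cells that could carry Car2 gave a mixed picture. Of 8 Kupffer cell and macrophage genes 6 were higher and 0 lower, with a median of 1.58 and non-overlapping groups for all 8. Among all genes 4.67% were called higher, and 11.2% had non-overlapping groups with the transgenic arrays higher. Lyz2 rose by 2.84, Adgre1 by 1.74, Cd68 by 1.71 and Csf1r by 1.64. Their sum was 12.5 to 13.6 in transgenic and 11.0 to 11.4 in control arrays. Of 5 measured bile duct genes 0 were called by limma and 1 had an unadjusted p under 0.05, Krt19 at -0.25 (adjusted p = 0.0885), with sums of 7.73 to 8.08 and 7.77 to 7.97. The part of either cell type in the Car2 result was not tested.

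Of 10 measured genes that clear red cells and recycle haem, 4 were higher and 0 lower, with a median of 0.66. The share called higher was 4.67% over all genes. Hmox1, which opens the haem ring, rose by 1.36 (SE 0.27, limma adjusted p = 0.0258), reading 7.45, 7.54, 7.17 and 7.41 in controls and 9.05, 9.49, 8.42 and 8.04 in transgenic arrays. The plasma scavengers of free haemoglobin and haem, Hp and Hpx, rose by 0.74 (adjusted p = 0.0041) and 0.57 (adjusted p = 0.0121). Both are also acute phase proteins. Vcam1, an adhesion molecule of macrophages that handle red cells and of inflamed endothelium, rose by 2.36 (adjusted p = 0.0015). Leaving out transgenic replicate 1 ended the calls on Hmox1 (adjusted p = 0.0921) and Hpx (0.0520), and leaving out any 1 control ended that on Hmox1, over ranges of 0.00559 to 0.0921 and 0.00533 to 0.0520. None of the 4 is specific to red cell turnover.

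Precursors of other blood lineages and fetal genes gave 0 calls in limma's test. Of 10 granulocyte precursor genes 3 had an unadjusted p under 0.05, with Cebpe, the factor of granule formation, at -0.42 (adjusted p = 0.0659), and the list's median was -0.17. Of 5 measured genes of fetal liver 1 did, Dlk1 at -0.53 (adjusted p = 0.0960), with a median of -0.13.

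The genes whose array pattern was most like the mean of the 7 members, after subtracting each group's mean, were Eef1b2, Dnajc12, Metrnl, Snrpg and Ccnd3. Over the 8 arrays their Pearson r with that mean was 0.98, 0.97, 0.97, 0.96 and 0.95, and without transgenic replicate 2 it was 0.98, 0.96, 0.96, 0.96 and 0.95. These values describe the best of many genes over few arrays and carry no test. The members did not move together within the groups. In transgenic replicate 2 Car1, Gata1 and Klf1 had their lowest reading, while Slc4a1, Epb42, Alas2 and Car2 had their highest. The mean of the members thus stayed within -0.098 to 0.138 of its group mean. Genes like that mean need not follow any single member. None of the 5 was called between the groups, with limma adjusted p from 0.158 to 0.909.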

How the data were processed

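Gene expression was measured in 8 livers, each on 1 Affymetrix array, from biotin-labelled whole-transcript targets of total RNA. Per the submitters' processing notes, the authors made the deposited log2 values in Affymetrix Expression Console; the sources used here do not state its version, settings or normalization. Base 2 was read from the values, whose maximum is 14.1. Upper quartiles of the arrays lay between 6.76 and 7.06, and no further normalization was applied. Of 35556 probe sets 21789 had 1 gene symbol, 1621 several and 12146 none; Entrez identifiers of 21698 matched the GRCm38.p6 table, which changed 0 symbols. Limma 3.58.1 in R 4.3.3 fitted the group as the only term over the 21789, with empirical Bayes moderation, two-sided tests and Benjamini-Hochberg adjustment. Intervals are limma's 95% intervals. The arrays of a group are labelled biological replicates.

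Tested on simulated data of 19938 genes, limma recovered, of 50 genes each, 49 raised by 2 on the log2 scale, 49 lowered by 2, 41 raised by 1 and 43 lowered by 1. False calls numbered 12, and 0 with no change simulated. This recovery holds for the simulated spread and need not hold for the livers. There Car3 at -1.76 had a transgenic SD of 1.72 and was not called. Alternatives were quantile normalization, median centring, leaving out dim probe sets, all deposited probe sets, averaged probe sets, trend and robust moderation, weights per array, a block for the replicate number and leaving out each array.

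The members and lists were chosen with earlier results of these data known. Named were the members, Ikbkb, up to 4 called genes of each list (or the gene with the smallest p) and the 5 genes most like the members' mean among those at or above the median level. Alb, Asgr1, Ttr, Epor, Rhag, Kel, Epx and the carbonic anhydrases Car3, Car5a, Car8, Car9, Car11, Car13, Car14 and Car15 were added after their values were seen.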

Additional observations from a re-analysis of the deposited data

Results flagged for a closer look

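A single array stood far from the other 3 of its group in 6 of 104 group readings looked at. About 1 in 20 independent readings would do so by chance. These readings were of chosen genes on the same arrays, and 3 of the 6 fell on transgenic replicate 2. The chance share therefore cannot say whether 6 is many or few. In transgenic replicate 2 Car1 read 4.99, while the rest of that group lay at 6.48 to 6.79. The same array read 6.34 for Abcb10, against 6.58 to 6.62, and 11.2 for the Kupffer cell gene Vsig4, against 10.1 to 10.2. Control replicate 2 read 9.51 for Eef1b2, against 9.28 to 9.29, and 7.48 for Snrpg, against 6.96 to 7.05. Control replicate 3 read 7.22 for Cd68, against 7.43 to 7.46.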

How the results depend on the processing

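Over all genes 932 were higher and 333 lower. Quantile normalization gave 638 lower, median centring 618 higher and 97 lower, all deposited probe sets 425 and 54, array weights 501 lower and the replicate block 174 lower. The share of calls that were higher was 73.7%, 62.6% after quantile normalization, 86.4% after median centring and 88.7% with all deposited probe sets. Leaving out 1 array gave 192 to 1636 higher and 3 to 944 lower genes. Of the members, 1 was lower after median centring, without the dimmest 30% or 50% (where 1 was also higher and Gata1 was left out) and with the replicate block (1 higher), 0 with all deposited probe sets, and 1 higher with array weights. Leaving out 1 array gave 0 to 2 lower and 0 to 1 higher members. The other erythroid genes gave 1 higher and 1 lower after median centring and with all deposited probe sets, 1 higher and 2 lower with the replicate block, and 1 to 4 higher and 0 to 6 lower when 1 array was left out. Ikbkb stood at 0.873 to 1.11 when 1 array was left out, and its call was lost in 5 of these 8 cases. The sign turned for Alas2 (-0.17) and Slc4a1 (-0.011) with array weights and without transgenic replicate 2 for Epb42 and Slc4a1, whose ranges over arrays left out were -0.085 to 0.20 and -0.23 to 0.35. The cause of these changes was not tested. Same-numbered arrays deviated together with r of 0.28, -0.03, 0.27 and -0.13, and 2 of 4 correlated best with their own number. The labels state no pairing, and so few correlations cannot decide whether same-numbered arrays shared a batch. With the block Gata1 had a limma adjusted p = 0.0742, Car1 0.0455 and Car2 0.0494. The calls on Zfpm1 (0.0877), Tspan33 (0.0626), Alas1 (0.0552), Mpp1 (0.0764) and Clec1b (0.0589) were also lost with it. Readings under the array medians could not be set against background.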
